A study of Mus musculus with 3 samples.

Results

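The constant region genes of the immunoglobulin loci were described in 3 stable BCR::ABL1+ Cdk6 KM/KM cell lines. The 9 genes, out of 50686 in the count table, were taken by matching gene identifiers to the symbols Ighm, Ighd, Ighg1, Ighg2b, Ighg2c, Ighg3, Igha, Ighe and Igkc. The group was chosen by the spread between these lines, because Ighg2b had been seen among the most variable genes, so every difference between lines is given as a description without a test. The study asked what the kinase activity of CDK6 does in leukemic cells, and its RNA-seq compared lines with wildtype, kinase inactive and deleted CDK6. Only the kinase inactive arm was analysed here, and no genotype effect was computed. All 3 lines came from bone marrow of C57BL/6 mice homozygous for the K43M form of CDK6, which lacks kinase activity. They grew out after retroviral transduction with a vector carrying BCR::ABL1 p185 and GFP, and the labels call them Pre/Pro-B-cells. The age of the mice, and whether a line descends from 1 cell, are not given in the sources used here. Each line is 1 library of poly(A) RNA, and lines 1, 2 and 3 follow the replicate numbers of the labels.

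B cells build an antibody heavy chain by joining V, D and J segments and splicing the joined exon to a constant region. Ighm, the first constant gene downstream of the J segments, encodes the μ chain that pre-B cells pair with the surrogate light chain, and Ighd encodes the δ chain of mature naive B cells. The genes further downstream encode the γ, ε and α chains of IgG, IgE and IgA. They are reached by class switch recombination, which is preceded by non-coding germline transcripts from each gene's own promoter. The κ light chain is joined later, in small pre-B cells, and Igkc also gives a germline transcript before joining. Counts per gene do not separate germline from joined transcripts, or membrane from secreted forms.

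The heavy chain genes lie on the minus strand of chromosome 12 in mm10, with Ighm at chr12:113418558-113422730 and Ighg2b at chr12:113302965-113307933. Measured from the 5′ end of Ighm in the direction of transcription, Ighd starts 6.41 kb downstream. Ighg3 follows at 61.5 kb, Ighg1 at 92.2 kb, Ighg2b at 115 kb, Ighg2c at 134 kb, Ighe at 149 kb and Igha at 162 kb. Igkc lies on the plus strand of chromosome 6 at chr6:70726435-70726966, as a single exon.

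Annotated exons of Ighm, Igkc and the γ genes are shown 5′ to 3′ as transcribed (Gencode M21 transcripts, build mm10), since reads of 50 bases had to tell the γ genes apart. Counts per exon were not analysed. Capitals mark bases inside a 50-base stretch that also occurs in a transcript of another gene. The first constant exons of Ighm and Ighg2b, to which a joined V exon is spliced, hold none; the first 300 of 315 bases are given for Ighm and all 291 for Ighg2b.
Ighm first exon, chr12:113422431-113422730: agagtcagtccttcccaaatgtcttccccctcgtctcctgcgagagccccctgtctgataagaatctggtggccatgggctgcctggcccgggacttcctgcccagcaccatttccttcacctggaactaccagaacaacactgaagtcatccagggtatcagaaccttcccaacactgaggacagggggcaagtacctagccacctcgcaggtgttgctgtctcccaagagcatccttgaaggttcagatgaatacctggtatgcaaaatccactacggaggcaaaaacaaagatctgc
Ighg2b first exon, chr12:113307643-113307933: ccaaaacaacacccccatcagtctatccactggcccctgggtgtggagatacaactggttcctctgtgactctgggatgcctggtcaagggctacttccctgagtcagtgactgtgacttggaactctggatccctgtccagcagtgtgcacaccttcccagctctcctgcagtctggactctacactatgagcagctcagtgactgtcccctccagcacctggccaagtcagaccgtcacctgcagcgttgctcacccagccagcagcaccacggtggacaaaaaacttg
The first exon of Ighg2b was 88.3% identical to that of Ighg1, 87.6% to that of Ighg2c and 78.7% to that of Ighg3. The hinge exons of the γ genes also hold no shared stretch. Identity to the 66 bases of the Ighg2b hinge was 77.3% for Ighg2c, 50.0% for Ighg3 and 42.4% for Ighg1 in a global alignment.
Ighg2b hinge exon, chr12:113307261-113307326: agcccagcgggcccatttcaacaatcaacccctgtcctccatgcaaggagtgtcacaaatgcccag
Ighg2c hinge exon, chr12:113288263-113288325: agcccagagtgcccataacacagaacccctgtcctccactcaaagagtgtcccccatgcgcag
Ighg1 hinge exon, chr12:113329844-113329882: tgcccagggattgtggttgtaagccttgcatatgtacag
Ighg3 hinge exon, chr12:113360529-113360576: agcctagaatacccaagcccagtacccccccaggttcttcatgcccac
Exon 3 of Ighg2b and Ighg2c is shown because 154 of its 330 bases lie in stretches common to these genes, all within the first 300. In Ighg2b, exons 5 and 6 of the membrane form hold another 88 and 63 bases in shared stretches.
Ighg2b exon 3, chr12:113306854-113307153: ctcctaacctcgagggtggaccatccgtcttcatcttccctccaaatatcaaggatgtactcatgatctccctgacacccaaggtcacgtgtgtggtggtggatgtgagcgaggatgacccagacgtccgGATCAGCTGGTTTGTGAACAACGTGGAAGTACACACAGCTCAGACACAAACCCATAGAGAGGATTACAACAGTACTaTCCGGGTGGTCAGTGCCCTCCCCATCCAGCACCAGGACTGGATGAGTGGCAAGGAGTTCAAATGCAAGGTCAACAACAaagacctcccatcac
Ighg2c exon 3, chr12:113287854-113288153: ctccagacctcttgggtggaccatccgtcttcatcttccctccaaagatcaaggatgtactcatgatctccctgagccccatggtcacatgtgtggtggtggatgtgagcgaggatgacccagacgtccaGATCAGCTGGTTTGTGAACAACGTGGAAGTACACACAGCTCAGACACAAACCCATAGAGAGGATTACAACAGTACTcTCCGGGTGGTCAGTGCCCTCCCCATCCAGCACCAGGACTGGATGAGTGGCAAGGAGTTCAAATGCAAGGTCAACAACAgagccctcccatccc
Igkc, of which the first 300 of 532 bases are shown, shares no such stretch with another annotated gene.
Igkc first bases of the single exon, chr6:70726435-70726734: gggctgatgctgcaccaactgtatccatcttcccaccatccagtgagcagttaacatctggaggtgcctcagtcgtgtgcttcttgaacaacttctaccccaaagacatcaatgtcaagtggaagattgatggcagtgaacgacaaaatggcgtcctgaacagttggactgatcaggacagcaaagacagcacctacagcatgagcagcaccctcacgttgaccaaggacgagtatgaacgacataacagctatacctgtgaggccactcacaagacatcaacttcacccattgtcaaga
Over all exons, 4.15% of the 50-base stretches of Ighg2b, 5.49% of Ighg2c, 1.58% of Ighg3 and 0.393% of Ighg1 recur in another γ gene. For Ighm, Ighd, Ighe, Igha and Igkc the share was 0%. Reads of Ighg2b were therefore mostly assignable by sequence.

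Libraries held between 19633463 and 25773221 counts on genes. Values are given as CPM, counts per 1000000 after TMM scaling, and intervals are exact 95% intervals that cover counting error only. Line 3 stood apart from the other lines before any constant gene is considered. Of 13974 genes with at least 10 counts in all, 362 were at least 2-fold above both other lines in line 3, against 109 in line 1 and 137 in line 2. The lines differed less in genes at least 2-fold below both others, with 165 in line 3, 136 in line 1 and 122 in line 2. Line 3 also differed in sex chromosome genes, with 1350 Xist counts against 18 and 15, and 2 Kdm5d counts against 954 and 1135. The label was checked against B-lineage markers. Of 10 pro-B and pre-B markers, 9 had at least 1 CPM in each line. Pax5, the factor that commits cells to the B lineage, was present at 789 to 849 CPM, Bst1 at 252 to 260 and Spn at 132 to 219. The exception was Kit, a pro-B marker, with 0 counts in all lines. Because 1 line decides most of the spread described here, values without line 3 are given beside the main ones.

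Of the 9 constant region genes, 4 reached 10 counts in all, namely Ighm, Ighd, Ighg2b and Igkc. In all 4 the highest and lowest line lay at least 2-fold apart on log2(CPM + 1), where 10.9% of the genes kept did. Ighg2b and Igkc were at least 2-fold higher in line 3 than in both other lines (2.59% of genes), and Ighm and Ighd at least 2-fold lower (1.18% of genes). Without line 3, only Ighg2b remained 2-fold apart. The choice of the genes used this spread, so nothing is read from these shares.

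**Figure D1:**
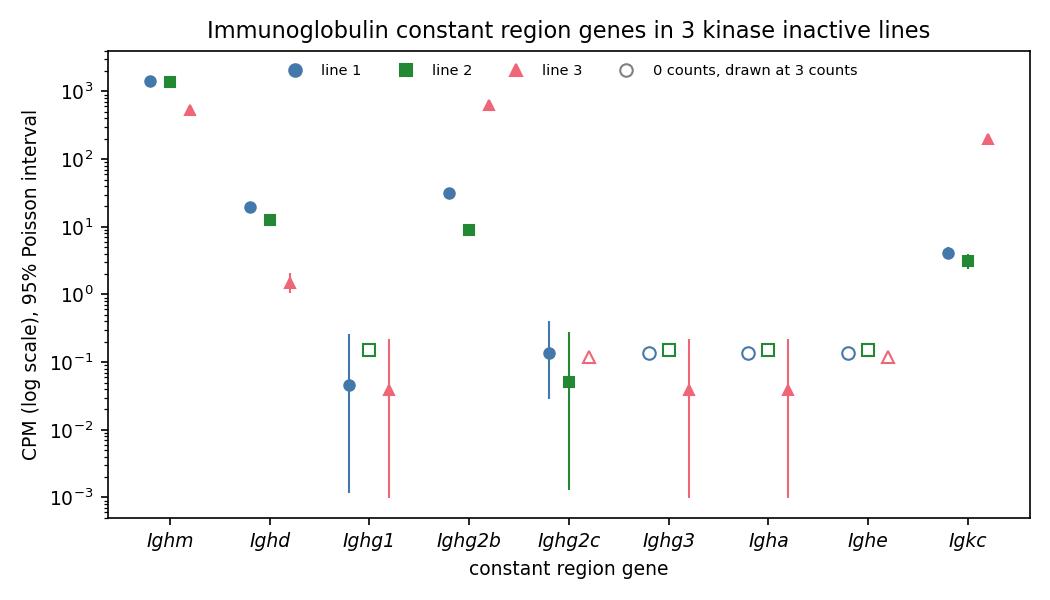
CPM of the 9 constant region genes (log scale) in lines 1, 2 and 3, with exact 95% Poisson intervals; open symbols are counts of 0 drawn at the level of 3 counts. Line 3 is above both other lines for Ighg2b and Igkc and below both for Ighm and Ighd, and the other 5 genes have at most 3 counts in any line.

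Ighm was the most abundant constant gene per exon length in lines 1 and 2. Lines 1, 2 and 3 held 30503, 27101 and 13597 reads of it, which correspond to 1405, 1373 and 534 CPM (mean ± SD 1104 ± 494, n = 3). Lines 1 and 2 were close to each other, and line 3 was 2.63-fold lower than line 1 (interval 2.58 to 2.69) and 2.57-fold lower than line 2 (2.52 to 2.63). Over lines 1 and 2 alone the mean was 1397 CPM.

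Ighd, which is normally made from the same long transcript as Ighm by alternative processing, followed the same order. Its 421, 250 and 38 counts correspond to 19.4, 12.7 and 1.49 CPM (mean ± SD 11.2 ± 9.04, n = 3). Line 3 had 0.0769 times the level of line 1 (0.0537 to 0.107) and 0.118 times that of line 2 (0.0814 to 0.166). Relative to Ighm, Ighd counts came to 1.38%, 0.922% and 0.279%. Over lines 1 and 2 alone the mean was 16.1 CPM. The level of Ighd in line 3 was thus lower also in proportion to Ighm.

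Ighg2b, the γ2b constant gene, was present in every line and highest in line 3. The lines held 681, 176 and 15831 reads of it, which correspond to 31.4, 8.92 and 621 CPM (mean ± SD 221 ± 347, n = 3). The SD exceeded the mean because 1 line carried most of the signal. Line 3 was 19.8-fold above line 1 (18.3 to 21.4) and 69.7-fold above line 2 (60.1 to 81.3), while line 1 was 3.52-fold above line 2 (2.98 to 4.18). Without line 3 the mean was 20.3 CPM, and the gene was still the only one of the 4 whose lines lay 2-fold apart.

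**Figure D2:**
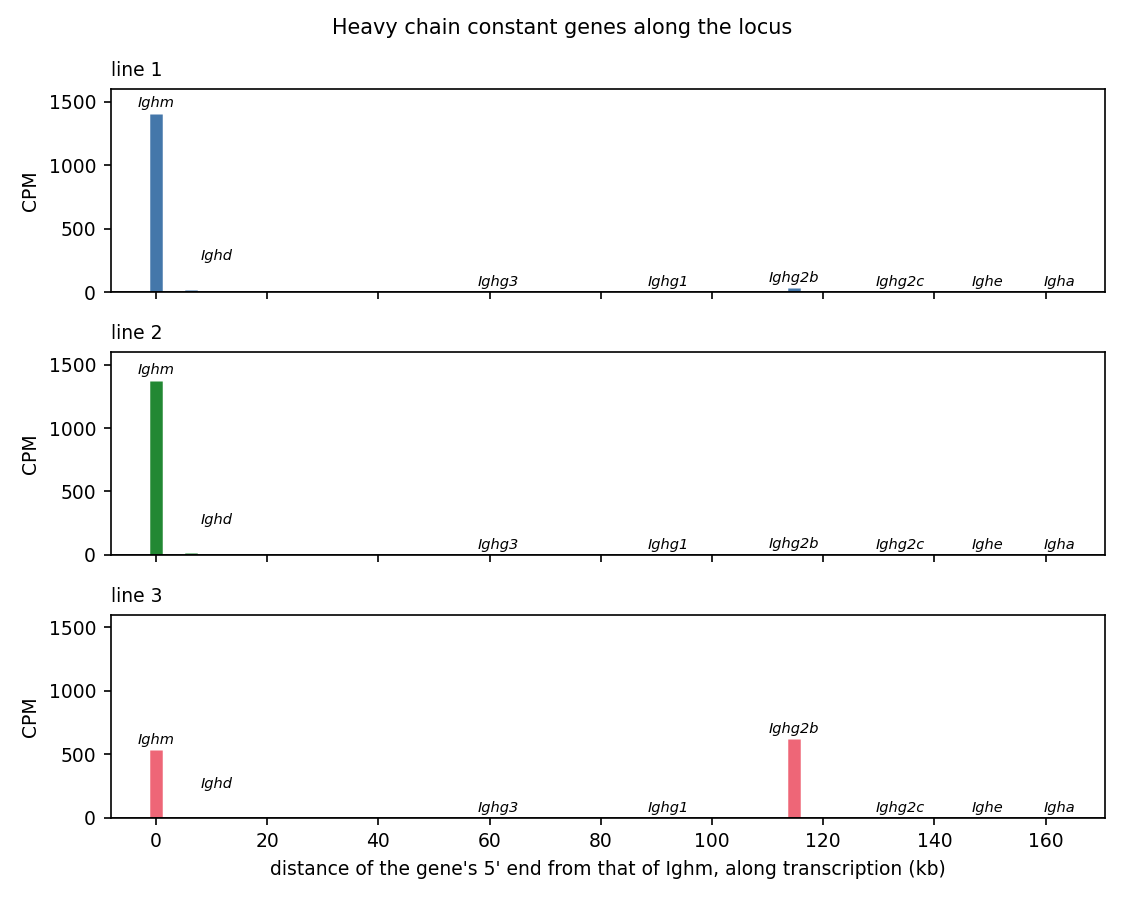
CPM of the 8 heavy chain constant genes (vertical axis, linear, from 0) against the distance of each gene's 5′ end from that of Ighm in kb, 1 panel per line. Lines 1 and 2 have a single tall bar at Ighm, and line 3 has bars of 534 CPM at Ighm and 621 CPM at Ighg2b.

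Among all heavy chain constant counts, Ighm took 96.5% in line 1 (96.3 to 96.7), 98.4% in line 2 (98.3 to 98.6) and 46.1% in line 3 (45.6 to 46.7). Ighg2b took 2.15% (2.00 to 2.32), 0.639% (0.549 to 0.741) and 53.7% (53.1 to 54.3). In line 3 these genes held nearly all heavy chain counts between them, and Ighd held 0.129%. The summed level of the 8 heavy chain genes varied less, at 1456, 1394.5 and 1157 CPM (1336 ± 158, SD, n = 3).

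Whether Ighg2b or Ighm was higher in line 3 depended on the length used. Per kilobase of all annotated exons, Ighm had 283 and Ighg2b 232 CPM per kb in line 3, a ratio of 0.820, and the share of Ighg2b was 45.0%. With the length of the shorter, secreted form (1493 bases for Ighm and 1114 for Ighg2b) the ratio was 1.56. Lengths in the release used for counting were not analysed here, and the order of these genes in line 3 was not settled. In lines 1 and 2 the ratio per kilobase of all exons was 0.0157 and 0.00457.

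**Figure D3:**
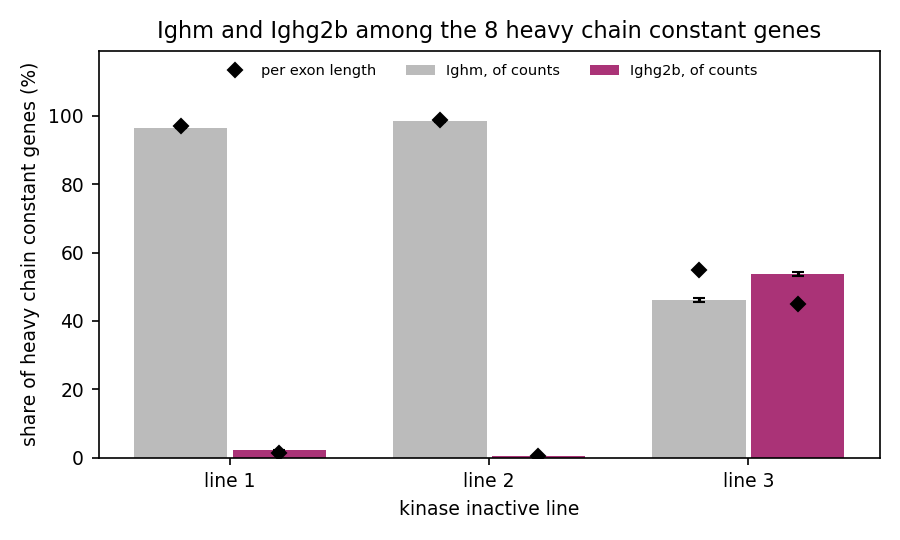
Share of Ighm and Ighg2b among the counts of the 8 heavy chain constant genes in each line (bars from 0, with exact 95% binomial intervals), and the same share per exon length (diamonds). Ighg2b is at 2.15% and 0.639% of counts in lines 1 and 2 and at 53.7% in line 3, where the diamonds put Ighm above Ighg2b.

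The other downstream genes were not detected beyond a few counts. Ighg1 had 1, 0 and 1 counts, Ighg2c 3, 1 and 0, Ighg3 0, 0 and 1, and Igha 0, 0 and 1. Ighe had 0 counts in all lines. These 5 genes together had 8 counts, and 3 counts correspond to 0.138, 0.152 and 0.118 CPM in lines 1, 2 and 3. In line 3 a count of 0 allows up to 0.0125% of heavy chain constant counts, the upper end of its exact interval. Ighg3 and Ighg1 lie between Ighm and Ighg2b, and Ighg2c is the γ gene with the hinge most like that of Ighg2b. All of these genes were thus at the limit of detection in line 3, where Ighg2b was highest.

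Igkc, the κ constant gene, was nearly absent from lines 1 and 2 and abundant in line 3. Its 90, 61 and 4986 counts correspond to 4.15, 3.09 and 196 CPM (mean ± SD 67.7 ± 111, n = 3). Line 3 was 47.2-fold above line 1 (38.3 to 58.8) and 63.3-fold above line 2 (49.2 to 82.9). Without line 3 the mean was 3.64 CPM and the lines were less than 2-fold apart. Per kilobase of exon, Igkc reached 368 CPM per kb in line 3, against 7.79 and 5.81 in lines 1 and 2. With all exons this was above Ighm (283) and Ighg2b (232) in line 3, but with the length of the secreted form Ighg2b was at 558 and Ighm at 358 CPM per kb, so the order turned with the length. Set against the heavy chain genes per length, this was a ratio of 0.714 in line 3 and of 0.0103 and 0.00794 in lines 1 and 2. Igll1, the λ5 part of the surrogate light chain that κ replaces in the receptor, was at 585, 657 and 542 CPM, a range of 0.28 on log2(CPM + 1) where that of Igkc was 5.59.

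Other parts of the light chain loci were read as well. The 5 Igkj segments, which lie just upstream of Igkc, had 1, 5 and 98 counts in lines 1, 2 and 3, and 4 of them had at least 13 counts in line 3. The Igkv genes together had 540, 721 and 910 counts, or 24.9, 36.5 and 35.7 CPM. Igkv14-111 led in every line with 341, 548 and 449 counts, and so did not follow Igkc. Igkv3-7, with 5, 6 and 115 counts, and Igkv3-4, with 0, 0 and 54, did follow it and were picked after their values were seen. The λ constant genes had 4, 22 and 38 counts in all, so few λ counts accompanied Igkc in line 3.

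Segments upstream of Ighm were read as well. The 185 Ighv genes had 395, 513 and 528 counts in all, led by Ighv2-3 in lines 1 and 3 and by the pseudogene Ighv4-2 in line 2. The 4 Ighj segments had 38, 34 and 69 counts, and the 20 heavy chain D segments 14, 2 and 2. Scaled for depth, the Ighv genes came to 18.2, 26.0 and 20.7 CPM. The Ighj segments came to 1.75, 1.72 and 2.71 CPM and the D segments to 0.645, 0.101 and 0.0785 CPM. V segments were thus highest in line 2, J segments in line 3 and D segments in line 1. A pair of annotated microRNA genes, Gm25747 and Gm22175, lies between Ighj4 and the first exon of Ighm and was noticed after the values were seen. Their summed counts were 39, 48 and 1, or 12.8, 17.7 and 0.735 for every 10000 Ighm counts. The interval of this rate in line 3, 0.0186 to 4.10, lay below those of line 1 (9.09 to 17.5) and line 2 (13.1 to 23.5).

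Measured against all genes, the range between highest and lowest line was 5.97 for Ighg2b on log2(CPM + 1), which ranked 6 of 9389 genes with a mean of at least 5 CPM. Igkc followed at rank 11 with 5.59, Ighd at rank 105 with 3.03 and Ighm at rank 457 with 1.39. The rank of Ighg2b restates the choice of the genes and supports nothing. The genes beside Ighg2b in the order were Eif2s3y with 6.38 and Ryr2 with 5.88. With a pseudocount of 0.1 CPM Ighg2b ranked 46, and without line 3 it ranked 75. Without line 3 the ranges were 1.71 for Ighg2b, 0.58 for Ighd, 0.33 for Igkc and 0.04 for Ighm.

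**Figure D4:**
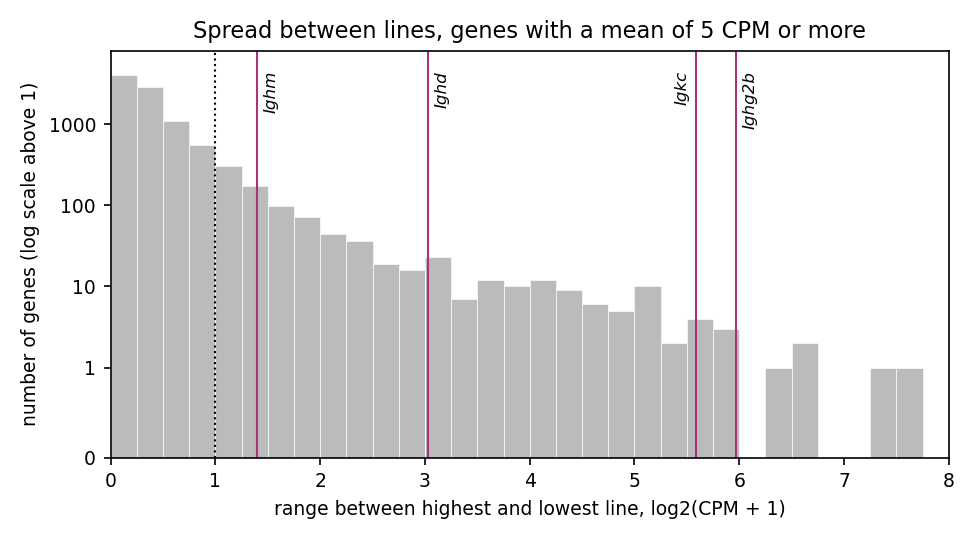
Number of genes (log scale above 1) by the range between highest and lowest line on log2(CPM + 1), over 9389 genes with a mean of at least 5 CPM; the dotted line marks 2-fold and coloured lines mark the constant region genes. Igkc and Ighg2b lie in the far tail at 5.59 and 5.97, and Ighm lies closer to the bulk at 1.39, rank 457.

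The 5 genes whose profile over the 3 lines was nearest to that of Ighg2b were taken by Euclidean distance of centred log2(CPM + 1) values. They were Sult1d1 at 0.40, Cav2 at 0.84, H19 at 0.89, Igkc at 1.00 and Klhl22 at 1.05. Igkc was thus among the nearest although it lies on another chromosome. Sult1d1, a sulfotransferase gene, had 107, 10 and 3557 counts, and H19, an imprinted non-coding RNA, had 1431, 505 and 18052. Such a likeness rests on 3 libraries, and the 362 genes at least 2-fold higher in line 3 share its main feature.

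The partners of the μ chain in the pre-B cell receptor varied less between lines than the 4 kept constant genes, which were chosen by their spread. None of the 6 (Igll1, Vpreb1, Vpreb2, Vpreb3, Cd79a, Cd79b) lay 2-fold apart between lines. Over all genes kept the share was 10.9%, so nothing is read from this count. Cd79a, a signalling chain of the receptor, was at 393, 421 and 379 CPM, and Vpreb3 at 316, 317 and 354 CPM. Of 11 V(D)J recombination genes, 3 lay 2-fold apart. Rag1 and Rag2, which cut the segments, were highest in line 2, at 22.4, 91.4 and 32.4 CPM and 12.4, 31.8 and 11.0 CPM. Dntt, which adds bases at the joints, was highest in line 3 with 21, 32 and 109 counts. The line with most Igkc was thus not the line with most Rag1.

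Genes of class switching were set beside Ighg2b. The most abundant of those reported, Parp1, Supt5 and Apex1, lay between 269 and 826 CPM in all lines and were less than 2-fold apart. Hmces, which shields abasic sites in DNA, had 49, 131 and 38 counts and was lowest in line 3. Of 21 kept genes that act in germline transcription, such as TGF-β, IL-4 and NF-κB components, only Il4ra lay 2-fold apart, at 45.7, 22.0 and 56.7 CPM. Over all genes kept, 10.9% lay 2-fold apart. Relb had 8.02, 8.16 and 16.1 CPM. Its line 3 was 2.00-fold above line 1 in CPM, but its range of 0.92 on log2(CPM + 1) fell short of the limit. Tgfb1, the cytokine linked to switching to γ2b and α, had 228, 246 and 287 CPM.

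Markers of later B-cell stages were set beside the constant genes. Of 6 kept plasma cell markers, none was 2-fold above both other lines in line 3. Only 2.59% of all genes kept were, so nothing is read from this count. Mzb1 was at 546, 551 and 539 CPM, Jchain, which joins IgA and IgM units, at 19.5, 8.51 and 11.0 CPM, and Tnfrsf17 had 0, 0 and 3 counts. Xbp1, Irf4, Sdc1 and Prdm1 were highest in line 3, at 231, 208 and 260 CPM, 102, 135 and 152 CPM, 12.9, 21.5 and 25.8 CPM, and 1.15, 1.57 and 2.59 CPM. The median difference of line 3 from the mean of lines 1 and 2 over the list was 0.31 on log2(CPM + 1), against 0.00 over all genes kept, and Jchain was highest in line 1. Of 8 kept mature B markers, 4 lay 2-fold apart, in different directions, against 10.9% of all genes kept. Cr2, a complement receptor, was highest in line 3 with 225, 100 and 565 counts, whereas Ms4a1, which encodes CD20, was lowest there with 59, 28 and 11. Of 9 kept pro-B and pre-B markers, only Il2ra lay 2-fold apart, at 1.43, 12.4 and 4.16 CPM.

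**Figure D5:**
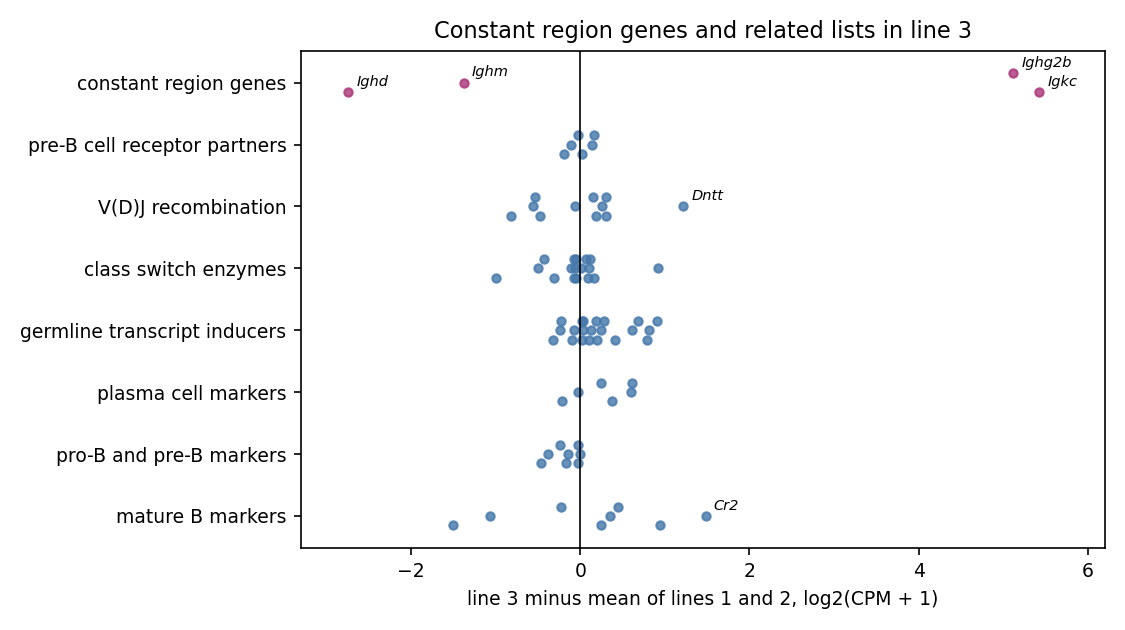
Difference of line 3 from the mean of lines 1 and 2 on log2(CPM + 1) for the genes reported here with at least 10 counts (points), by list; names mark genes at least 2-fold above or below both other lines in line 3. Ighg2b (5.12) and Igkc (5.42) lie furthest to the right and Ighd (-2.74) furthest to the left.

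The listed markers of other cells were low in all lines. Over 7 T cell markers the summed counts were 7, 3 and 11, over 4 NK cell markers 15, 15 and 17, and over 4 stromal markers 0. Over 10 myeloid markers they were 38, 41 and 103, of which Lyz2 gave 36, 40 and 91, and over 8 erythroid and megakaryocyte markers 61, 104 and 181, most of them Hbb-bt. Tcrg-V4, a T cell receptor segment outside these lists, had 0, 0 and 1088 counts and was picked after its values were seen. The myeloid and erythroid sums were also highest in line 3. The part of these markers and of Tcrg-V4 in the result was not tested. In bulk RNA, fewer cells with a transcript and less of it per cell cannot be told apart, so the Ighg2b and Ighm counts of line 3 may come from the same or from different cells.

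Genes around the loci showed no like difference in their median. Line 3 deviated from the 3-line mean by a median of 0.02 on log2(CPM + 1) over 60 expressed protein coding genes within 5 Mb of the heavy chain constant genes. The median was 0.06 over 30 such genes around Igkc. Over all genes kept, the median difference of line 3 from the mean of lines 1 and 2 was 0.00. The lincRNA gene Gm30211, which spans Igkc on the same strand but shares 0 exon bases with it, had 3, 7 and 1 counts.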

How the data were processed

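Poly(A) RNA of 3 cell lines was sequenced with 50-base single-end reads. The labels name the SENSE mRNA-Seq kit, whereas the paper's methods name TruSeq. Per the submitters' processing notes and the paper, the authors trimmed reads with Trimmomatic, aligned them to mm10 with STAR, used featureCounts to count reads overlapping Gencode M13 exons, and deposited these counts unnormalized. The strand setting and the treatment of reads with several matches are not given in the sources used here. A further 6 sample columns of the table were not used.

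The 9 genes were found by identifier; 50376 of 50686 rows matched Gencode M21, which gave symbols, coordinates and exon lengths. Libraries had 21569845, 19633463 and 25773221 counts, so a floor of 3 counts was 0.138, 0.152 and 0.118 CPM. The exact interval of a gene with 0 counts reached up to 0.170, 0.187 and 0.145 CPM. Counts were scaled with edgeR 4.0.16 (TMM) in R 4.3.3 after keeping genes with at least 10 counts in all. A pseudocount of 1 CPM was used for log2 values and ranges. Intervals are exact Poisson (levels, ratios) or Clopper-Pearson (shares) at 95%. Reads are not independent molecules, so these cover counting error only. Chi-square per gene was 32.3 to 60.3 between libraries, so no library was a duplicate. No test between lines was made, because only 1 group was analysed and the genes were chosen for their spread. Lines are labelled replicates, and their spread may in part be technical.

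The members and gene lists were chosen with earlier results of these data known. Named are all 9 genes, the 3 most abundant and the 2 most variable genes of each list with a mean of at least 1 CPM (not all printed), and the 5 nearest profiles to Ighg2b among genes with a mean of at least 5 CPM. Others were chosen after their values were seen, among them Xist, Kdm5d, the V and J segments and the microRNA genes, and genes given for their role. Some genes of the lists are not reported here. The fold rule and the intervals were tested on simulated data. Alternatives were scaling by library size or by size factors of DESeq2 1.42.0, omission of the filter, a pseudocount of 0.1 CPM, a limit of 4-fold, shares per exon length, windows of 10 Mb and leaving out each line. The length of the secreted form was added after the values were seen. Tables were handled in pandas 2.3.3 (Python 3.11.15), and intervals came from scipy 1.17.1.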

Additional observations from a re-analysis of the deposited data

How the results depend on the processing

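The sign of line 3 against lines 1 and 2 was kept by Ighm, Ighd, Ighg2b and Igkc under the normalization and pseudocount alternatives. All 32 values recomputed with DESeq2 size factors or library size alone moved by less than the SD or, for counts and ranks, less than 1.5 times. The SD was taken between lines, but for the medians around the loci over the neighbouring genes in line 3. The number of genes 2-fold apart was 1530; it was 3182 with a pseudocount of 0.1 CPM, 384 at a limit of 4-fold, and 620 to 979 with 1 line left out in turn. The number of constant region genes 2-fold apart was 4 and became 1 to 4 with 1 line left out, the 1 being Ighg2b without line 3. The rank of Ighg2b by range was 6, 46 with a pseudocount of 0.1 CPM (the cause was not tested) and 5 to 75 with 1 line left out. The mean share of Ighg2b among heavy chain constant counts was 18.8% and 1.40% to 27.9% with 1 line left out. Its share in line 3 was 53.7% of counts and 45.0% per kilobase of exon. The level of Ighg2b relative to Ighm per length in line 3 was 0.820 with all exons and 1.56 with the secreted form's length. No paired analysis was possible because only 1 group was analysed.

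Depth limits the 5 genes with at most 3 counts in a line, for which no difference between lines was detectable. All statements on line 3 rest on 1 library, so they describe that line and not the kinase inactive genotype.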
